A study of Mus musculus with 4 samples.

Results

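Lef1, Tcf7l1 and Tcf7l2 encode the transcription factors most closely related to Tcf1, and Tle1, Tle2, Tle3 and Tle4 encode the Groucho/Tle corepressors that these factors recruit. These 7 genes were taken by symbol from the 19938 genes with a single-gene probe set on an Affymetrix whole-transcript array, and each of the 7 was represented by 1 probe set. The remaining member of the mouse TCF/LEF family, Tcf1 itself (gene Tcf7), was the factor put into the cells and is not analysed here, so its expression in the Tcf1 cells was not verified. Factors of this family bind DNA through an HMG box. Without beta-catenin they hold Tle proteins at their target genes, which are then repressed, and beta-catenin displaces Tle and turns the same sites into sites of activation. In the thymus Tcf1 and Lef1 act together in early T cell development.

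RNA was measured in 3 groups of cells, all derived from bone marrow of wild-type C57BL/6 mice. Tcf1 cells (2 arrays, labelled as biological replicates) came from lymphoid-primed multipotent progenitors (LMPPs) transduced with the Tcf1-VEX retrovirus, sorted for the VEX reporter after 48 hours and cultured on OP9 stroma, a marrow-derived line that presents no Notch ligand. Control cells (1 array) came from LMPPs given the VEX vector alone and were grown on OP9 cells that carry the Notch ligand DL4. Both were kept with IL7 and Flt3 ligand and sorted on day 10 as living CD45.2+ Thy1+ CD25+ cells without Mac1 or Gr1, so they differed in vector and in stroma at once. LMPPs (1 array, pooled cells without lineage markers, Sca+, kit+ and Flt3 high) were collected after 48 hours in the transduction medium with its cytokines. They differed from both cultures in time, medium, stroma, vector and sort gate, and the effects of these cannot be told apart. Control cells and LMPPs had 1 array each, so the number of arrays limits the precision, and control cells against LMPPs had no test.

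Signal is given on the log2 scale, where 1 unit is a 2-fold difference, and each gene is compared only with itself. Over all genes, array medians lay between 7.47 and 7.59. The 75th percentile was 9.12 on the array of Tcf1 replicate 1 and between 9.32 and 9.35 on the other arrays. The difference between the 2 Tcf1 arrays had an SD of 0.24 across genes, and differences between arrays of different groups had SDs between 0.42 and 0.55. The sort marker Il2ra, which encodes CD25, read 12.91 and 12.99 in Tcf1 cells and 13.64 in control cells, against 6.88 in LMPPs. Cd3g, a chain of the CD3 complex and a marker of T cells that was not sorted for, read 6.48 and 6.64 in Tcf1 cells, against 13.001 in control cells and 5.62 in LMPPs. Gata3 and Bcl11b, T lineage transcription factors that were not sorted for either, lay nearer to their control values: Bcl11b read 9.40 and 9.60 in Tcf1 cells, against 10.28 in control cells and 7.42 in LMPPs.

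Lef1 was the gene among the 7 whose signal differed most between the groups, so the sequence before its transcription starts is shown. RefSeq (GRCm38.p6) gives it 4 start sites in the promoter table used, of which the first and the last are printed, 250 bases before each start, on the plus strand. In human cells a start inside the gene is known to give a shorter LEF1 that lacks the part bound by beta-catenin. The array reports 1 value for Lef1 and does not separate the starts. Capitals mark the letters CTTTGA, a form of the core of the TCF/LEF binding sequence, or TCAAAG, the same letters on the other strand. Other forms of the core were not searched for and are not marked.
Lef1, first start, chr3:131110047-131110296: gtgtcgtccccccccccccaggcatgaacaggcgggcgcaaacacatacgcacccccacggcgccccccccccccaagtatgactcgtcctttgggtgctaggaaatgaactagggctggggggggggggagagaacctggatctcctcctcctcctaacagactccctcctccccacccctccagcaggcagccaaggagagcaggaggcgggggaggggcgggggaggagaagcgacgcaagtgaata
Lef1, last start, chr3:131156044-131156293: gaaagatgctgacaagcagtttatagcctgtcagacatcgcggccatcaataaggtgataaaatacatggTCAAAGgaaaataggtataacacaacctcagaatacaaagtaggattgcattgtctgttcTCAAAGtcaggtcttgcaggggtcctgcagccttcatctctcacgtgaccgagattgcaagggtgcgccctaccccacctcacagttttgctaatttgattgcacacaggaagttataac
The window before the first start held no match, and the window before the last start held 2 matches, both on the minus strand, which begin 180 and 120 bases before the start. Among 32851 promoter windows of 250 bases in the table, 13.8% held at least 1 match on either strand. The windows of the other 6 genes and the other 2 Lef1 windows held no match to these exact letters. The Runx letters TGTGGT (14.0% of all windows) were in no window of the 7 genes, and the GATA letters AGATAA (9.99% of all windows) were in 1, before the second start of Tcf7l2. A match describes letters only. The window before the first start of each gene had a G and C content between 52.4% (Tle3) and 77.2% (Tle1), with a median over all windows of 52.4%.

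Among the HMG factors, Lef1 stood between its LMPP and control levels in Tcf1 cells. Lef1, which can activate or repress T lineage genes with Tcf1, read 8.44 and 8.92 in Tcf1 cells, against 10.59 in control cells and 6.93 in LMPPs. Both Tcf1 arrays were above the LMPP array and below the control array, with the nearest Tcf1 array 1.51 from the LMPP value and 1.68 from the control value, and the Tcf1 arrays were 0.48 apart. Lef1 signal was 3.36-fold higher in Tcf1 cells than in LMPPs and 3.77-fold lower than in control cells. It rose by 1.75 on the log2 scale against LMPPs (SE 0.22, 95% interval 1.21 to 2.28, adjusted p = 0.0100, limma over all genes). Against control cells it differed by -1.91 (95% interval -2.45 to -1.38, adjusted p = 0.00560, limma). The rise covered 41.2% of the log2 distance between LMPPs and control cells in Tcf1 replicate 1 and 54.2% in replicate 2. Control cells were 12.7-fold above LMPPs for Lef1, 1 array against 1 with no test, and 0.236% of genes were further apart between those arrays. No detection calls were used, so how far the LMPP value lay above background is not known, and these folds and shares depend on it.

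Both Lef1 calls rest on a spread taken from the Tcf1 pair and from all genes, and neither held when all 35399 probe sets, named or not, entered the fit (adjusted p = 0.302 and adjusted p = 0.218, limma), where no probe set of the table passed and 3317 and 3702 had an unadjusted p under 0.05. Lef1 and the transduced Tcf7 encode similar HMG boxes and probe sequences were not used here, so shared signal was not tested. RNA from the cells' own Tcf7 gene was not analysed in any group. What the vector or that gene adds to the Lef1 signal of any array is therefore not known. In such bulk samples, more cells with Lef1 and more Lef1 RNA per cell cannot be told apart.

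Tcf7l2, the HMG factor best known from gut epithelium, had its highest signal in Tcf1 cells. It read 8.69 and 8.96 in Tcf1 cells, against 8.04 in control cells and 8.23 in LMPPs. Both Tcf1 arrays were above both other arrays, and the nearest gap, 0.45 to LMPPs, was larger than the 0.28 between the Tcf1 arrays. The difference was 0.79 from control cells (95% interval 0.35 to 1.23, adjusted p = 0.0744, limma) and 0.59 from LMPPs (95% interval 0.15 to 1.03, adjusted p = 0.185, limma), so neither passed over all genes. The difference from control cells passed under 3 other settings, with renewed quantile normalization (0.88, adjusted p = 0.0229), after median centring (0.75, adjusted p = 0.0199) and over genes above the 25th percentile (0.79, adjusted p = 0.0179, all limma). It did not pass with the mean of a gene's probe sets, all probe sets, a mean-variance trend or only the 2 groups compared. The control and LMPP values were 0.20 apart.

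Several macrophage and progenitor markers were also higher in Tcf1 cells than in control cells. Of 15 macrophage markers, 10 were higher in Tcf1 cells than in control cells and 5 did not pass, where 378 of all 19938 genes were higher. The summed linear signal of these markers was 11375 and 14433 in Tcf1 cells, against 2012 in control cells and 6309 in LMPPs. Adgre1, a macrophage surface receptor, read 11.10 and 11.43 in Tcf1 cells, against 6.51 in control cells. C1qa, a complement gene of tissue macrophages, read 6.77 and 6.83 in Tcf1 cells and 6.64 in control cells, and did not pass (adjusted p = 0.831, limma). Of 8 progenitor markers, 5 were higher in Tcf1 cells than in control cells, with a summed linear signal of 16932 and 17453 in Tcf1 cells, against 4632 in control cells and 20327 in LMPPs. Flt3 and Kit of this list were sorted for in LMPPs, so the LMPP sum in part reflects that sort. Itgam, which encodes Mac1 and was sorted against in Tcf1 and control cells, is among the 5 macrophage markers that did not pass. Of 14 stromal markers, 1 was higher and 1 lower than in control cells, and Bgn, a matrix proteoglycan, read 8.41 and 9.13 in Tcf1 cells, against 7.25 in control cells and 6.52 in LMPPs (adjusted p = 0.0344 against control cells, limma). The abundant collagen gene Col1a1 read 8.38 and 8.29 in Tcf1 cells, 8.16 in control cells and 8.12 in LMPPs. The part of other cell types in the Tcf7l2 values was not tested.

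Tcf7l1, a family member that acts mainly as a repressor in embryonic stem cells and skin, showed the smallest spread among the HMG factors. It read 7.24 and 7.36 in Tcf1 cells, against 7.21 in control cells and 7.08 in LMPPs. The 4 arrays spanned 0.28, and the nearest Tcf1 array was 0.04 from the control array. Its differences of 0.22 from LMPPs (95% interval -0.17 to 0.61) and 0.09 from control cells (95% interval -0.30 to 0.48) did not pass (adjusted p = 0.687 and adjusted p = 0.929, limma).

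**Figure D1:**
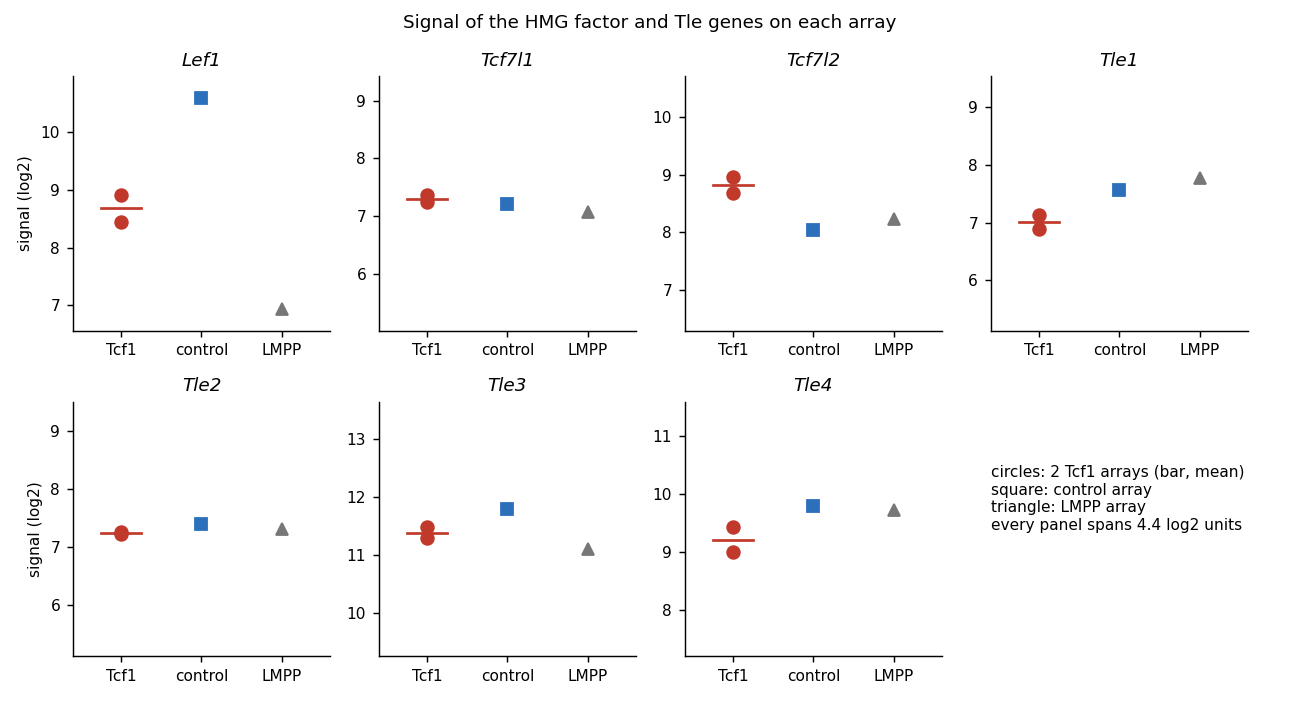
Signal (log2, vertical axis) of the 7 genes on each array, with the 2 Tcf1 arrays as circles and their mean as a bar, the control array as a square and the LMPP array as a triangle, and with panels of equal height. Lef1 spans 3.66 units over the 4 arrays, and the other 6 genes each span less than 1 unit, from 0.18 (Tle2) to 0.93 (Tcf7l2).

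Among the corepressors, Tle1 and Tle4 had their lowest signal in Tcf1 cells, Tle3 followed the order seen for Lef1, and Tle2 had the narrowest span. None of the 4 Tle genes passed in either comparison over all genes, and at an unadjusted p under 0.05 in limma stood Tle1 and Tle4 against LMPPs and Tle1, Tle3 and Tle4 against control cells. Tle1 is a corepressor that Runx and Hes factors also recruit. Tle1 read 6.89 and 7.13 in Tcf1 cells, against 7.56 in control cells and 7.77 in LMPPs. Both Tcf1 arrays were below both others, and the nearest Tcf1 array was 0.43 from the control value and 0.64 from the LMPP value. The difference was -0.76 from LMPPs (95% interval -1.19 to -0.34, adjusted p = 0.0879, limma) and -0.55 from control cells (95% interval -0.98 to -0.13, adjusted p = 0.193, limma). The difference from LMPPs passed after median centring (-0.80, adjusted p = 0.0165, limma) and over genes above the 25th percentile (-0.76, adjusted p = 0.0250, limma). It did not pass with renewed quantile normalization, the mean of a gene's probe sets, all probe sets, a mean-variance trend or only the 2 groups compared.

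Tle4, a corepressor that also works with Pax5 in B cells, read 9.00 and 9.42 in Tcf1 cells, against 9.79 in control cells and 9.73 in LMPPs. Both Tcf1 arrays were again the lowest, but they were 0.42 apart, about as far as the nearer of them was from the control array (0.37). The differences were -0.51 from LMPPs (adjusted p = 0.329, limma) and -0.58 from control cells (adjusted p = 0.259, limma), with 95% intervals of -1.02 to -0.01 and -1.09 to -0.08. With renewed quantile normalization they were smaller, at -0.39 and -0.47 (adjusted p = 0.285 and adjusted p = 0.185, limma).

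Tle3 read 11.29 and 11.48 in Tcf1 cells, against 11.80 in control cells and 11.11 in LMPPs. The Tcf1 arrays lay between the other arrays, as for Lef1, over a span of 0.69. Its differences of 0.28 from LMPPs (95% interval -0.13 to 0.69) and -0.41 from control cells (95% interval -0.82 to -0.004) did not pass (adjusted p = 0.588 and adjusted p = 0.348, limma). Control cells were 1.61-fold above LMPPs for Tle3, short of the 2-fold used to count single arrays as apart.

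Tle2 read 7.25 and 7.22 in Tcf1 cells, against 7.40 in control cells and 7.30 in LMPPs, a span of 0.18. The differences of -0.07 from LMPPs (95% interval -0.45 to 0.31) and -0.16 from control cells (95% interval -0.55 to 0.22) did not pass (adjusted p = 0.947 and adjusted p = 0.820, limma). Tle2 lies between Tle5 and Tle6 on chromosome 10 in GRCm38.p6 and its annotated span overlaps that of Tle6. Tle5, a short relative that lacks the repeats by which Tle proteins bind many partners, read 11.41 and 11.65 in Tcf1 cells, against 11.70 in control cells and 11.63 in LMPPs. Tle6, a divergent relative, read 7.14 and 7.41 in Tcf1 cells, against 7.11 in control cells and 7.42 in LMPPs. Neither Tle5 nor Tle6 passed in either comparison, with adjusted p between 0.845 and 0.924 in limma.

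Counted together, 1 of the 7 genes (Lef1) was higher in Tcf1 cells than in LMPPs and 6 did not pass, where 3.06% of all genes passed, 1.75% higher. Against control cells, 1 of 7 (Lef1) was lower and 6 did not pass, where 4.38% of all genes passed, 2.49% lower. At an unadjusted p under 0.05 in limma the numbers were 4 of 7 against LMPPs and 5 of 7 against control cells, where 14.5% and 14.1% of all genes were under the same value. For control cells against LMPPs, Lef1 alone of the 7 was at least 2-fold apart, as were 5.53% of all genes, 3.17% higher in control cells. The median difference of the 7 genes was 0.22 against LMPPs and -0.41 against control cells, where the medians over all genes were 0.00 and 0.02. The comparisons against LMPPs and against control cells share the Tcf1 arrays.

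**Figure D2:**
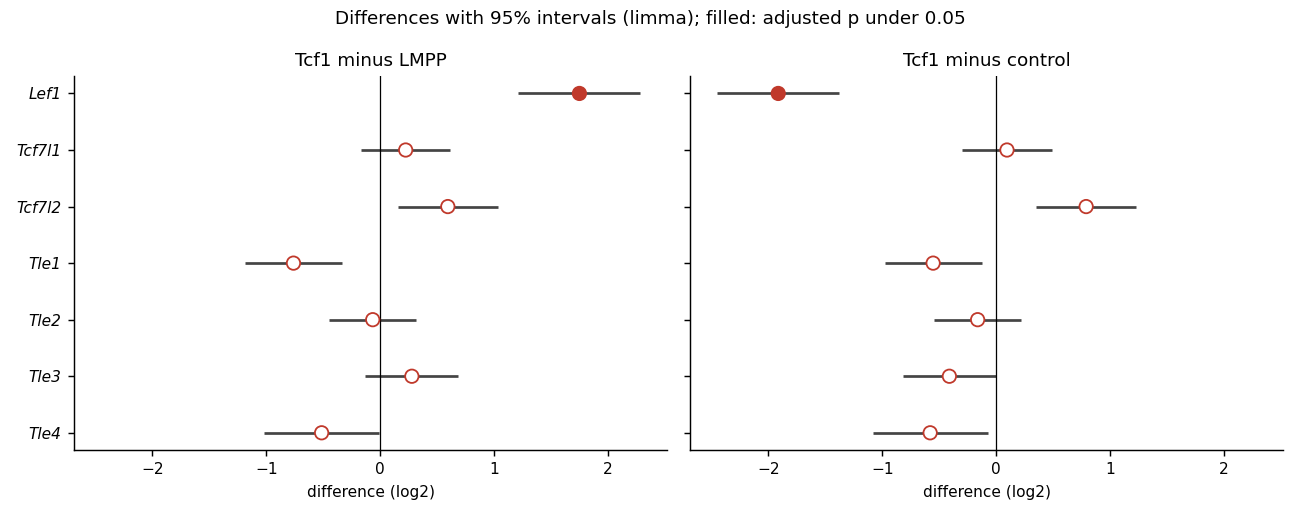
Difference in signal (log2, horizontal axis) of each gene for Tcf1 cells minus LMPPs (left) and Tcf1 cells minus control cells (right), with 95% intervals from limma as lines and filled points for an adjusted p under 0.05. Lef1 is filled in both panels, at 1.75 and -1.91, while the intervals of Tcf7l2, Tle1 and Tle4 miss 0 in both panels without passing over all genes.

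The genes that work with TCF/LEF factors and Tle proteins were described from 8 lists. Over all genes, 3.06% passed against LMPPs and 4.38% against control cells. No gene of the beta-catenin list passed between Tcf1 cells and LMPPs: of 15 genes listed with beta-catenin, not all of them its cofactors, 0 passed, with a list median of 0.02. At an unadjusted p under 0.05 in limma stood 4 of them (14.5% of all genes): Ctnnb1, Jup, Ctnnd1 and Tcf25. Ctnnb1, which encodes beta-catenin, read 11.41 and 11.47 in Tcf1 cells, against 11.34 in control cells and 11.83 in LMPPs, and did not pass in either comparison (adjusted p = 0.337 against LMPPs, limma). Against control cells, Ctnnd1, encoding p120 catenin of cell junctions, was higher by 2.37 (adjusted p = 7.0e-04, limma), and Bcl9l, an adaptor that tethers coactivators to beta-catenin, was lower (-0.97, adjusted p = 0.0430, limma). Ctnnd1 read 9.18 and 9.13 in Tcf1 cells and 6.78 in control cells, against 9.55 in LMPPs.

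Of 9 genes of the destruction complex, which marks beta-catenin for breakdown, 0 passed in either comparison. With an unadjusted p under 0.05 in limma there were 1 against LMPPs (14.5% of all genes) and 0 against control cells (14.1% of all genes). Axin2, part of this complex and also a common reporter of TCF/LEF activity, read 7.40 and 7.75 in Tcf1 cells, against 7.86 in control cells and 6.98 in LMPPs. It had the same order of groups as Lef1, but its differences of 0.59 from LMPPs and -0.29 from control cells did not pass (adjusted p = 0.217 and adjusted p = 0.673, limma). Of 6 measured deacetylases and corepressors, 0 passed against LMPPs, also at an unadjusted p under 0.05 in limma. Hdac1, a deacetylase that Groucho proteins recruit, read 12.11 and 12.26 in Tcf1 cells, against 12.13 in control cells and 12.13 in LMPPs. Ctbp2, another corepressor, was higher in Tcf1 cells than in control cells by 1.39 (adjusted p = 0.00638, limma), the 1 gene of this list that passed there.

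Of 10 measured genes for other DNA-binding proteins that bring Tle to their targets, 0 passed against LMPPs and 2 were lower than in control cells. With an unadjusted p under 0.05 in limma there were 3 against LMPPs (14.5% of all genes) and 5 against control cells (14.1% of all genes). Hes1, a Notch target and repressor, read 6.73 and 6.79 in Tcf1 cells, against 9.52 in control cells and 6.94 in LMPPs, and was lower than in control cells (-2.77, adjusted p = 4.0e-04, limma). Gfi1, a repressor that works in T and myeloid progenitors, was also lower than in control cells (-1.12, adjusted p = 0.0119, limma).

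Of 13 other genes with HMG boxes, 0 were higher and 1 was lower than in LMPPs, and 2 were lower than in control cells, with 8 at an unadjusted p under 0.05 there (14.1% of all genes). Tox, needed for CD4 T cell development, was lower than in control cells (-1.40, adjusted p = 0.0145, limma). Tox3 was lower than in LMPPs (-1.21, adjusted p = 0.0137, limma) and than in control cells (-0.81, adjusted p = 0.0499, limma). Sox13, an HMG factor of gamma delta T cells that binds Tcf1, read 8.23 and 8.24 in Tcf1 cells, against 8.38 in control cells and 8.24 in LMPPs, and did not pass.

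Of 14 TCF/LEF target and feedback genes known from several tissues, 0 were higher and 2 were lower in Tcf1 cells than in LMPPs, with a median of -0.03, and 1 was higher than in control cells. Ccnd1, cyclin D1, read 7.63 and 7.92 in Tcf1 cells, against 7.38 in control cells and 10.49 in LMPPs. Cd44, an adhesion receptor, was lower than in LMPPs (-0.87, adjusted p = 0.0441, limma) and higher than in control cells (1.55, adjusted p = 0.00396, limma).

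T lineage genes linked to Tcf1 stood, for the most part, between their LMPP and control levels in Tcf1 cells. In 8 of 12, both Tcf1 arrays lay above the LMPP array and below the control array, an order found in 9.51% of all genes. Of these 12 genes, 6 were higher than in LMPPs and 6 did not pass, and 6 were lower than in control cells and 6 did not pass. The medians were 0.73 and -1.04. Gata3, required for T cell development, read 9.95 and 10.29 in Tcf1 cells, against 11.42 in control cells and 7.58 in LMPPs. Il7r, the receptor chain for IL7, was highest in Tcf1 cells, at 12.11 and 12.33, against 11.51 in control cells and 9.27 in LMPPs, and it passed against LMPPs only (adjusted p = 6.5e-04 against LMPPs and adjusted p = 0.0916 against control cells, limma). Il2ra and Thy1 of this list were sorted for. Both are among the 8 genes with this order and among the 6 higher than in LMPPs, so these counts in part reflect the sort. The order also does not mean midway: Cd3e read 7.45 and 7.42 in Tcf1 cells, against 10.41 in control cells and 7.32 in LMPPs. The summed linear signal of T lineage markers over 9 genes had the same order as Lef1 and was 15585 and 17072 in Tcf1 cells, against 36323 in control cells and 1285 in LMPPs. Without the sort markers Il2ra and Thy1 it was 2532 and 3005 in Tcf1 cells, against 15491 in control cells and 888 in LMPPs. Their part in the Lef1 result was not tested.

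**Figure D3:**
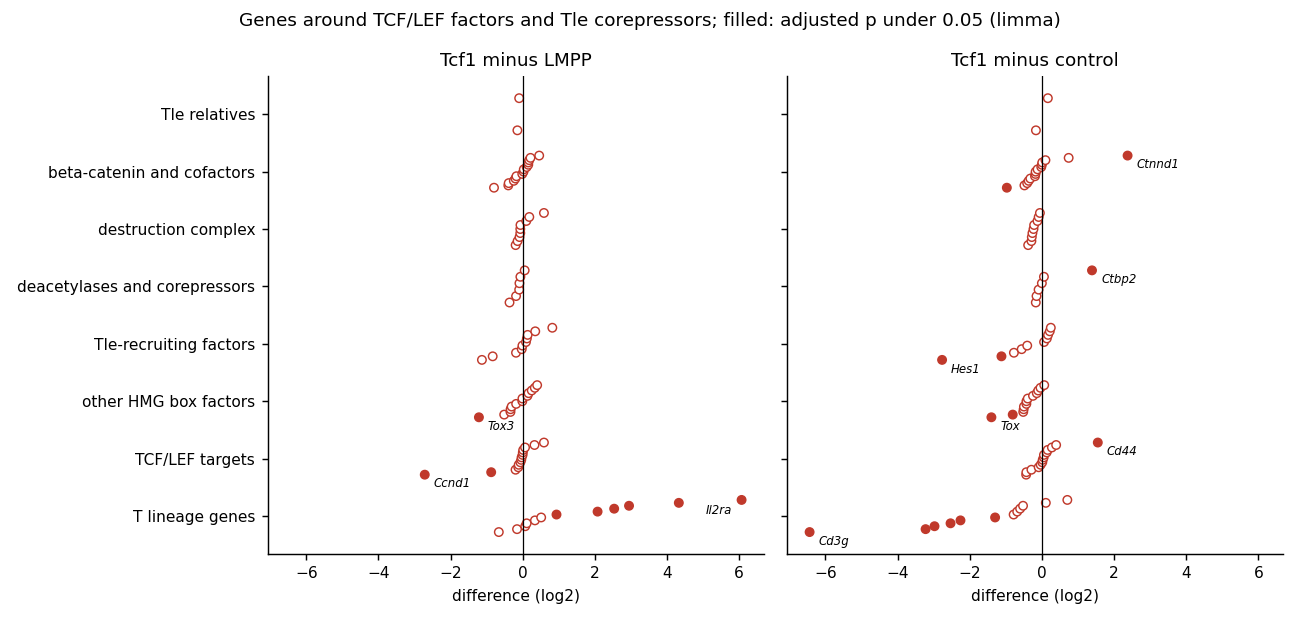
Difference in signal (log2, horizontal axis) of single genes in 8 lists (rows) for Tcf1 cells minus LMPPs (left) and Tcf1 cells minus control cells (right), with filled points for an adjusted p under 0.05 in limma. Filled points are few outside the T lineage genes. Of these, 6 of 12 lie to the right against LMPPs, among them the sort markers Il2ra and Thy1. Against control cells, 6 of 12 lie to the left.

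The genes whose profiles over the 4 arrays were closest to that of Lef1 were Trdv2-2, a T cell receptor delta segment, Il17rb, a receptor of interleukin 17 family cytokines, Igf2, a growth factor, Cxcr5, a chemokine receptor, and Cd163l1, a scavenger receptor of gamma delta T cells. Likeness was the root mean square distance between profiles centred on each gene's mean, compared over 18618 genes, and the 5 distances ran from 0.14 to 0.17. Trdv2-2 read 6.72 and 7.17 in Tcf1 cells, against 9.16 in control cells and 5.17 in LMPPs, and shares sequence with other segments of its family, so its signal is uncertain. Il17rb read 9.30 and 9.50 in Tcf1 cells, against 11.41 in control cells and 7.46 in LMPPs. Over 4 arrays of 3 groups such a ranking only describes these arrays. In all, 57 genes (0.286%) had the group order of Lef1 and passed in both comparisons.

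**Figure D4:**
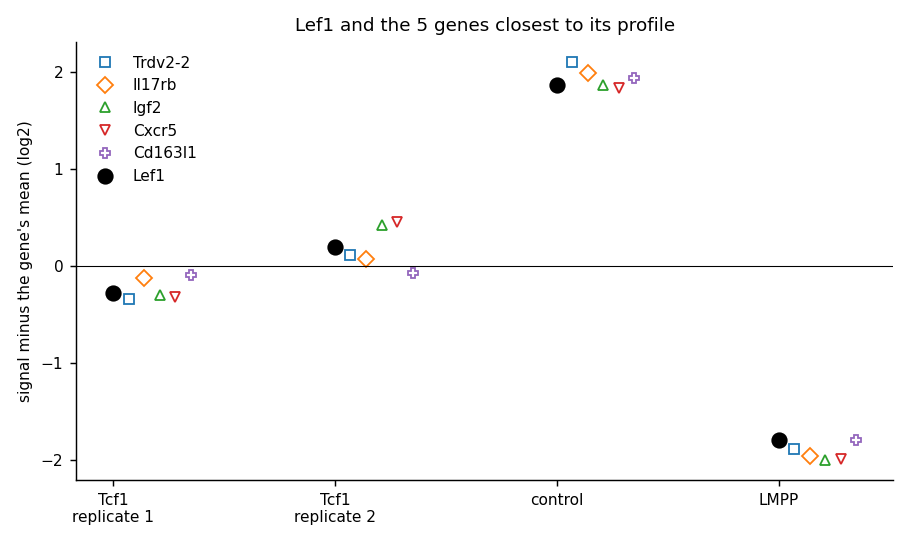
Signal minus the gene's own mean (log2, vertical axis) on each array for Lef1 (filled circles) and the 5 genes with the closest profiles (open symbols, set slightly apart sideways). All 6 genes are lowest in the LMPP array, highest in the control array and near their own mean in both Tcf1 arrays.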

How the data were processed

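RNA was amplified and labelled with whole-transcript kits, per the labels' protocols. As deposited, the authors' table holds a log2 signal for each probe set, made with RMA and Partek 6.5, per the submitters' processing notes. The log base was taken from RMA and the range of the values, and the build and parameters are not given in the sources used here. A single gene symbol was given for 21789 of 35399 probe sets, which left 19938 genes (the probe set with the highest mean for each gene). Detection calls were not used here. A model of 3 group means was fitted in limma 3.58.1 (R 4.3.3), moderated by empirical Bayes (1 residual and 5.78 prior degrees of freedom). P-values were adjusted over all genes by Benjamini-Hochberg, with 0.05 as the threshold. The single LMPP and control arrays were taken to vary as the Tcf1 pair did. The fit was tested on simulated data, where false calls were above the nominal share and many 2-fold changes were missed, so a gene that did not pass may still differ and a call near the threshold is weak. Control cells against LMPPs had no test.

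The members and lists were chosen with earlier results of these data known. Named are the 7 genes, at most 4 genes of each list past the test in a comparison, Ctnnb1, Axin2, Tle5 and Sox13, and the 5 genes closest to a member that spans at least 1 log2 unit. Bcl11b, Hdac1, C1qa, Adgre1, Bgn, Pdgfrb, Col1a1, Jup, Tcf25 and the neighbours were named after their values were seen. Some list entries are not analysed here, and counts are over the measured genes. Marker lists covered T lineage, stroma, macrophage, B lineage and progenitor cells: 6 of 9, 2 of 14, 6 of 15, 0 of 8 and 1 of 8 were higher in Tcf1 cells than in LMPPs, and 0, 0, 1, 1 and 3 were lower. The 6 T lineage genes include the sort markers Il2ra and Thy1, and the 2 stromal genes were Bgn and Thy1. Among progenitor genes, the 1 higher was Kit and the 3 lower include Flt3, both sorted for in LMPPs. Against control cells 0, 1, 10, 0 and 5 were higher and 5, 1, 0, 1 and 0 were lower. Of all 19938 genes, 349 were higher and 261 lower than in LMPPs, and 378 were higher and 496 lower than in control cells. Promoter windows are from RefSeq (GRCm38.p6), with all 7 genes matched by symbol.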

Additional observations from a re-analysis of the deposited data

How the results depend on the processing

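Each comparison was refitted with renewed quantile normalization, median centring, genes above the 25th percentile, the mean of a gene's probe sets, all probe sets, a mean-variance trend and only the 2 groups compared. All 7 genes kept their direction in every one. Of 161 values under these settings and without 1 Tcf1 array, 154 stayed on their side of the threshold or within the replicate spread, 5 passed where they had not and 2 (Lef1) no longer passed. Leaving out 1 of 2 Tcf1 arrays moves their mean by less than the replicate SD, so those values were within the replicate spread by construction. The fit of only the 2 groups compared repeats the main fit, because a single array adds no spread. For control cells against LMPPs, which had no test, further settings could not change the values either. These were genes above the 25th percentile, the mean of a gene's probe sets and all probe sets, as each of the 7 genes has 1 probe set. All these values are part of the 154 but could not have moved. The number of the 7 genes past the test against LMPPs was 2 after median centring, 2 over genes above the 25th percentile and 0 over all probe sets. Against control cells it was 2 with renewed quantile normalization, 2 after median centring, 2 over the brighter genes and 0 over all probe sets, where 3 of the 7 had an unadjusted p under 0.05 in limma in each comparison. Over all genes, the count against LMPPs moved from 610 to 1456 after median centring (607 higher and 849 lower), to 936 with a mean-variance trend, to 1196 over genes above the 25th percentile and to 0 over all probe sets (3317 at an unadjusted p under 0.05 in limma). Against control cells it moved from 874 to 1646 after median centring, to 1437 over genes above the 25th percentile and to 0 over all probe sets (3702 at an unadjusted p under 0.05). The cause was not tested. Without Tcf1 replicate 1 or 2, which leaves values with no test, Lef1 differed by 1.51 to 1.99 from LMPPs and by -2.15 to -1.68 from control cells. No paired analysis was possible because only the Tcf1 group has more than 1 array.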

Other observations

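The protein-coding genes next to the 7 genes on their chromosomes in GRCm38.p6, taken as the nearest measured one on each side, did not pass in either comparison. Of 14 neighbours, 0 passed against LMPPs and 0 against control cells, where 3.06% and 4.38% of all genes passed. Their differences ran from -0.62 to 0.37 and from -0.25 to 0.50. At an unadjusted p under 0.05 in limma stood 1 and 2 of them, where 14.5% and 14.1% of all genes did. Beside Lef1, Hadh, an enzyme of fatty acid oxidation, read 11.20 and 11.33 in Tcf1 cells, against 11.08 in control cells and 11.34 in LMPPs. On its other side, Rpl34, a ribosomal protein gene, read 11.002 and 11.06 in Tcf1 cells, against 10.94 in control cells and 11.55 in LMPPs. Neither had the group order of Lef1, which 9.51% of all genes had.

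Runx1 and Runx3, which recruit Tle proteins through their last residues, stood on opposite sides of LMPPs without passing. Runx1, needed for blood stem cells and T cells, read 11.91 and 11.97 in Tcf1 cells, against 12.35 in control cells and 11.12 in LMPPs (0.82 from LMPPs, adjusted p = 0.0501, limma). Runx3, which silences Cd4 in CD8 T cells, read 10.79 and 10.96 in Tcf1 cells, against 11.65 in control cells and 11.71 in LMPPs (-0.83 from LMPPs, adjusted p = 0.0578, limma). Both were named after their values were seen.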
